A study of Homo sapiens with 5 samples.

Results

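Cadherins and solitary protocadherins were followed in IMR32 cells, an established human neuroblastoma line, after doxycycline switched on a stably transfected short hairpin RNA (shRNA) against MEIS1b, an isoform of the homeobox gene MEIS1. The members are all genes whose symbol is CDH or PCDH followed directly by a number. The clustered protocadherins (PCDHA, PCDHB and PCDHG genes) are not members. In all, 32 of the 19775 genes that have a probe set of their own met this rule, through 72 of 41097 single-gene probe sets. Each gene is represented by its brightest probe set, judged by the mean over the arrays. A further 6 probe sets name a member together with another gene (PCDH11X with PCDH11Y, and PCDH20 with a long non-coding RNA) and were not used. CDH4, CDH13, PCDH11Y and PCDH20 have no single-gene probe set here and were not analysed.

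Total RNA was hybridised to 5 Affymetrix arrays: 1 of cells without doxycycline (0 h), and a single one for each induction time of 24, 48, 96 and 192 h. Cells on all 5 arrays carry the inducible hairpin and grew in DMEM with fetal calf serum. No array of cells kept for as long without doxycycline, or of doxycycline without this hairpin, is among the 5, although the labels speak of controls grown alike without doxycycline, so induction, doxycycline and time in culture cannot be told apart. Whether the line is a single clone is not given in the sources used here.

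Classical cadherins are transmembrane proteins that bind each other between neighbouring cells in a calcium-dependent way, while their tails hold beta-catenin and p120-catenin, and alpha-catenin links the complex to actin. Type I cadherins (such as E-cadherin and N-cadherin) adhere strongly, and the many type II cadherins mark subsets of neurons and neural crest cells. Solitary protocadherins of the delta group lack the catenin-binding tail, are found mostly in the nervous system, and in the delta-2 subgroup recruit the actin-regulating WAVE complex.

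Values are MAS5 signals, in which an array's brightness is scaled as a whole and a signal of 1 is the floor. A gene was tested where its mean signal over the 5 arrays was at least 17.9, the median of all signals. This left 15 members and 11944 genes in all. CDH15 (mean signal 19.9) and CDH7 (20.1) lay just inside this limit, and CDH23 (15.9) and PCDH1 (15.1) just outside. In limma, log2(signal + 4.7) was regressed on the order of the arrays (steps 0 to 4), p-values were adjusted by Benjamini-Hochberg over all 11944 genes, and an adjusted p under 0.05 was a call. Slopes are given over the whole course, as fitted log2 changes with their standard errors (SE). The offset understates changes of dim genes. With 1 array per time point the p-values rest on the scatter of single arrays around a line, and not on replicates. For each gene, limma combines its own scatter over the 5 arrays with that of genes of like signal. Only genes with a call are said to have risen or fallen.

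The arrays had median signals of 16.0 to 19.0. MEIS1 itself, in its brighter probe set, had a signal of 1052 without doxycycline and of 786.6 to 857.0 on the induced arrays. Its fitted log2 change was -0.33 ± 0.14 (SE) with a limma adjusted p of 0.251. The other MEIS1 probe set read 597.2, 495.9, 560.4, 490.4 and 443.8 in time order. As the mean of its probe sets the MEIS1 change was -0.34. Without the 0 h array the MEIS1 change was -0.13 (adjusted p = 0.852). Of 14 adrenergic neuroblastoma markers with a probe set, 13 were above the signal limit, while 0 of 9 endothelial and 0 of 5 blood markers were. Of all 19775 genes, 11944 were above it. Among those 13 markers, 4 (GATA2, DDC, CHGA and CHGB) rose and 0 fell, against 2.02% and 1.46% of all genes tested. DDC passed in all 14 other settings, CHGB in 13, CHGA in 12 and GATA2 in 8; GATA2 did not pass without the 96 h array (adjusted p = 0.056) or without 192 h (0.0526), and was 0.86 as the mean of its probe sets against 1.62. The summed signal of the neuroblastoma markers lay between 11945.4 and 16094.7, of which MYCN alone read 3957.2 to 4418.4. That of the endothelial markers lay between 53.1 and 70.8 and that of the blood markers between 27.2 and 45.2. Of the Schwann cell markers 1 of 5 exceeded the limit, with a summed signal of 28.2 to 53.4. The lists differ in length and in probe sets, so their sums cannot be set against each other. Poly-A control transcripts are spiked into the RNA ahead of labelling, and the mean log2 level of their 24 probe sets differed from 0 h by 0.10, -0.46, -0.63 and -0.25 at 24, 48, 96 and 192 h.

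Among the members, 1 of 15 passed the threshold: PCDH8 fell and no member rose. Over all genes tested, 3.47% passed the threshold in either direction (2.02% rose and 1.46% fell). With array medians set equal, 43.4% of all calls were rises against 58.1% here, the median change of all genes was -0.11, and 3 members fell (PCDH8, PCDH18 and CDH6). At an unadjusted limma p under 0.05 there were 4 members (CDH6, CDH24, PCDH8 and PCDH18), against 17% of all genes. All 4 had a negative fitted change, while of the 2028 such genes among all tested 1007 were positive and 1021 negative. The median fitted change of the 15 members was -0.008, with 7 positive and 8 negative, and that of all 11944 genes was 0.003. A fitted change of at least 2-fold was found in 3 members (PCDH8, CDH6 and PCDH18) against 4.06% of all genes. All 3 were downward, where 1.6% of all genes lay, and 0 were upward, where 2.46% lay.

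**Figure D1:**
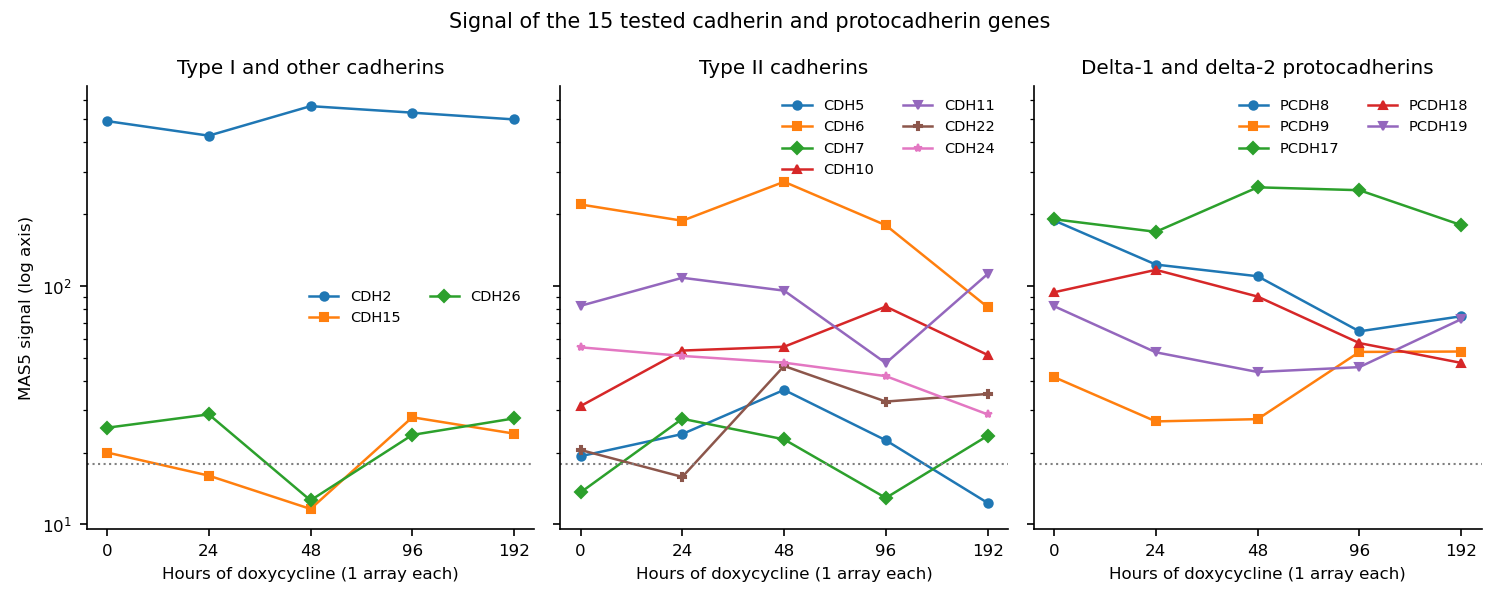
MAS5 signal on a log axis against hours of doxycycline (evenly spaced steps, 1 array each) for the 15 tested members, in 3 panels by subfamily, with the filter of 17.9 as a dotted line. Each line is a gene's brightest probe set, so its course can be read but heights of different genes cannot be set against each other; PCDH8 goes from 187.8 to 74.5, and CDH2 stays between 425.7 and 566.1.

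PCDH8, PCDH18 and PCDH17 are the delta-2 protocadherins on which the comparison turns, 1 that fell, 1 just short of the threshold, and 1 measured by several probe sets without a call. Their promoter sequences are shown so that genes of one subgroup with unlike values can be set side by side; the differences between them were not tested. Each line gives the 250 bases before the start of the gene in RefSeq (build GRCh38.p14), 5′ to 3′ on the gene's strand. Capitals mark CCAAT on either strand (written ATTGG on the other) and TATAAA, the cores of the CCAAT box and the TATA box.
PCDH8, chr13:52848641-52848890, minus strand: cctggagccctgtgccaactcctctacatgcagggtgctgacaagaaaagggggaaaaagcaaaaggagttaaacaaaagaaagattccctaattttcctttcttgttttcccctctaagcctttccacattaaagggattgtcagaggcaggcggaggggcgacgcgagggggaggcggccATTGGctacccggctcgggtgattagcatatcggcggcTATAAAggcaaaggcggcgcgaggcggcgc
PCDH18, chr4:137532495-137532744, minus strand: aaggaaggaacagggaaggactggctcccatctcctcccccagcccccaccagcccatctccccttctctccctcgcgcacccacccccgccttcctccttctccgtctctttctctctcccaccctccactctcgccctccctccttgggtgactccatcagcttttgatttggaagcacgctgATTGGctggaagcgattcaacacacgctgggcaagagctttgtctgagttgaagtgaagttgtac
PCDH17, chr13:57631494-57631743, plus strand: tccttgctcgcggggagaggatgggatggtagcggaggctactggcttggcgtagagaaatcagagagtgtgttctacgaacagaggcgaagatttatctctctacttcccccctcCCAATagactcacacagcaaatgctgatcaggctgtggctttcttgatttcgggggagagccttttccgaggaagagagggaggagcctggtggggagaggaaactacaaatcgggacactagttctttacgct

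In these windows PCDH8 has a CCAAT core starting 68 bases before the gene start and a TATAAA at 30 bases. PCDH18 has a CCAAT core at 65 bases and PCDH17 at 134 bases, and neither holds TATAAA. Promoters of 21 of the 32 members matched in the RefSeq table. Counted in the first promoter listed for each gene, 16 of the 21 (76.2%) hold CCAAT, against 34.5% of 15843 protein-coding genes, and the members with it include CDH2, CDH10, PCDH9 and PCDH19. In the band from 60 to 100 bases before the start, 8 of the 21 members hold CCAAT, against 13.4% of those genes. TATAAA was in 1 of the 21 members, PCDH8, against 9.2% of genes; other listed promoters of CDH2, CDH12 and PCDH11X hold it too. CCAAT and TATAAA were chosen after the sequences were seen, and a match is a description of letters and not a bound site. The core TGACAG, bound by MEIS factors, was in 3 of the 21 member promoters (CDH12, CDH19 and CDH20, none of them tested) against 11.9% of genes, each motif being counted on either strand and apart from the others. The E-box core CACCTG, bound by SNAI and ZEB repressors, was in 2 (PCDH1 and PCDH15) against 17.1%.

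The delta-2 protocadherins were the subgroup with the largest share of tested members, 4 of 5. PCDH8, also called paraxial protocadherin or arcadlin, acts in tissue separation in the embryo and at synapses. Its signal was 187.8 at 0 h and 122.7, 109.6, 64.4 and 74.5 at 24, 48, 96 and 192 h. All 4 induced arrays were below 0 h, and the 2 latest were the lowest. The fitted log2 change was -1.38 ± 0.26 (SE; limma adjusted p = 0.0122), and the 192 h level was 41.1% of 0 h on the scale with the offset. PCDH8 passed in 10 of 14 other settings. It did not pass without the 0 h array (fitted change -1.11, adjusted p = 0.218), with hours in place of steps (0.0915), with the spike-in level as a covariate (0.107) or with no signal filter (0.139), and the adjusted p ranged from 0.000574 to 0.218. It has 1 probe set, so no second one could be set beside it.

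PCDH18 encodes a delta-2 protocadherin studied mainly in neural and mesenchymal tissue. In time order the array signals were 93.9, 116.6, 90.1, 57.5 and 47.5. The highest value was thus at 24 h, and the 2 latest arrays were below all 3 earlier ones. The fitted change was -1.12 ± 0.29 (SE) with an adjusted p of 0.0577, just short of the threshold. It passed with array medians set equal (0.0123), with the signal limit doubled (0.0498) and without the 0 h array (0.0424). The other PCDH18 probe set was below the signal limit, with 16.6, 19.0, 23.3, 7.4 and 2.2 in time order, and its 2 latest arrays were also its lowest.

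PCDH17 takes part in the sorting of axons and in synapse assembly. It read 190.0, 168.3, 258.6, 251.5 and 179.6 in its brightest probe set. The arrays at 48 and 96 h were the highest and 192 h was close to 0 h (fitted log2 change 0.16 ± 0.25 (SE), limma adjusted p = 0.828). The other 2 probe sets gave 126.5, 116.3, 180.1, 174.0 and 124.9, and 129.5, 90.9, 150.8, 169.8 and 116.9. All 3 probe sets were lowest at 24 h and highest at 48 or 96 h. PCDH17 had a fitted change of 0.72 without the 192 h array and of -0.40 with the spike-in covariate, and its 2 highest arrays were those with the lowest spike-in level; the part of that level in the course was not tested.

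PCDH19, an X-linked protocadherin mutated in a form of epilepsy, had a V-shaped course of 82.1, 52.6, 43.5, 45.6 and 72.4. Every induced array was below 0 h, but the level at 192 h was 88.8% of 0 h on the scale with the offset. The fitted change of -0.21 ± 0.37 (SE) did not pass (limma adjusted p = 0.854) and was 0.54 without the 0 h array. The fifth delta-2 gene, PCDH10, was below the signal limit on average, with signals of 3.9 to 15.1 (median 7.0).

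**Figure D2:**
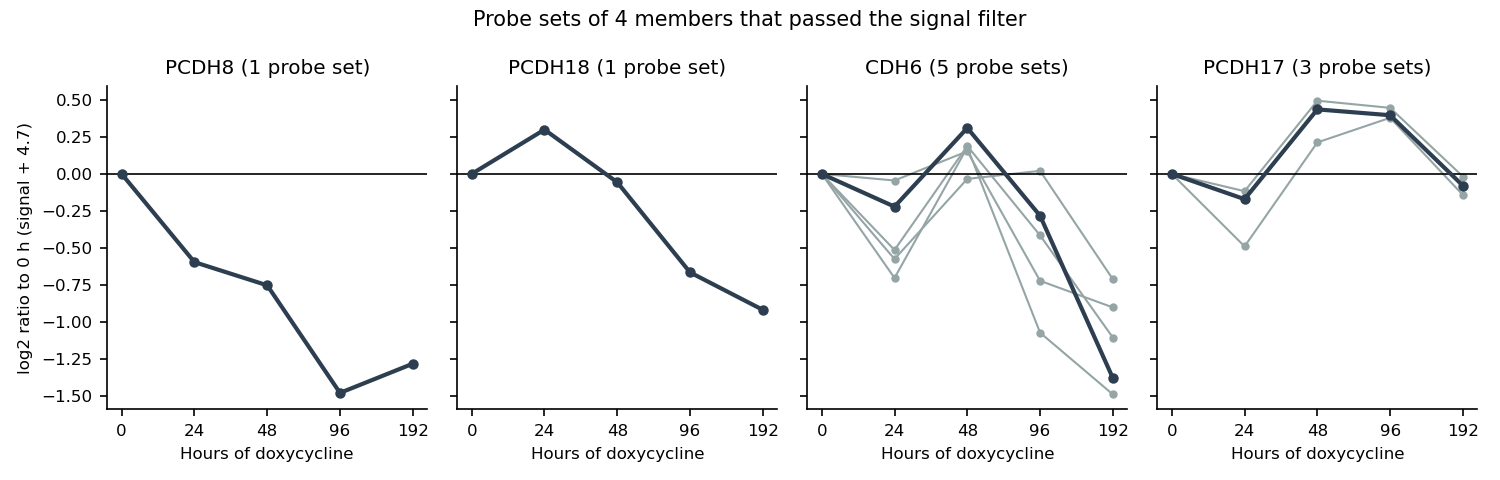
Log2 ratio of each array to 0 h on the scale with the offset of 4.7, against hours of doxycycline, for every probe set above the signal limit of PCDH8, PCDH18, CDH6 and PCDH17; the dark line is the brightest probe set and grey lines are the others. All 5 CDH6 probe sets are below 0 h at 192 h, and the 3 PCDH17 probe sets share a course that peaks at 48 or 96 h.

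Of the delta-1 protocadherins only PCDH9, a neuronal protocadherin, was tested. Its signal was 41.4, 27.0, 27.6, 52.8 and 53.0 in time order. The 2 early induced arrays were below 0 h and the 2 late ones above it. The fitted log2 change was 0.60 ± 0.41 (SE; limma adjusted p = 0.506), and the other tested probe set gave 0.40. Without the 0 h array it was 1.37 and without 192 h 0.39. PCDH1, which is expressed in epithelium and vessels, stayed below the signal limit on average but read 3.7 and 4.0 at 0 and 24 h and 26.5, 12.9 and 28.3 later. Its other probe set read 4.5, 4.7, 9.1, 18.3 and 20.2, so both were higher on the 3 later arrays. PCDH1 was not tested in the main fit. PCDH7 (1.0 to 13.4) and the single-gene probe set of PCDH11X (2.6 to 16.5) were below 17.9 on all arrays. Of the 4 probe sets that name PCDH11X together with PCDH11Y, which were not used, 1 had a mean above the limit. It read 12.2, 15.5, 16.7, 32.6 and 28.1 in time order. In a fit over all probe sets above the limit its log2 change was 1.12 ± 0.44 (SE), larger than the rise of any tested member. Its signal cannot be assigned to 1 of the 2 genes.

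Of 5 type I cadherins 4 had a probe set and 2 were tested, CDH2 and CDH15. CDH2, N-cadherin, the main cadherin of neurons and neural crest, read 490.1 at 0 h and 425.7, 566.1, 531.6 and 498.0 on the induced arrays. The 192 h value was 102% of 0 h and the fitted log2 change 0.15 ± 0.17 (SE; limma adjusted p = 0.738). The second CDH2 probe set read 211.7, 229.5, 272.0, 269.1 and 157.7, lowest at 192 h, with a fitted change of -0.24. The sign of the CDH2 change thus depended on the probe set, and neither value exceeded 1.5 times its SE. E-cadherin (CDH1) and P-cadherin (CDH3), the type I cadherins of epithelium, were dim: CDH1 lay between 1.0 and 9.9 and CDH3 between 1.3 and 2.7. Of 10 epithelial markers, 3 (KRT8, KRT7 and ESRP1) exceeded the signal limit, and the summed signal of all 10 lay between 100.9 and 145.8.

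CDH15, M-cadherin of skeletal muscle, read 20, 16, 11.6, 28.1 and 24, with no steady direction. Its fitted log2 change was 0.44 ± 0.50 (SE; limma adjusted p = 0.736), which was 0.97 without the 0 h array and 0.24 without 96 h. Of 7 skeletal muscle markers only CKM exceeded the signal limit. The summed signal of the 7 was lowest at 0 h (148.8) and highest at 96 h (264.9). That course was the course of CKM, which read 71.0, 153.0, 112.1, 188.3 and 123.9, and not of the muscle markers as a set. MYOD1 lay between 2.0 and 16.5, highest at 96 h, and MYOG between 4.5 and 23.2, highest at 0 h. CDH15, like CKM, was highest at 96 h. The part of muscle genes in this was not tested.

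Type II cadherins were the largest subgroup, with 7 of 13 tested and none past the threshold in the limma trend. At an unadjusted limma p under 0.05 there were 2 of the 7, CDH6 and CDH24, against 17% of all genes. Both had a negative fitted change. CDH6, K-cadherin, marks the early neural crest and the kidney. Its signals in time order were 219.1, 187.3, 272.8, 179.3 and 81.4. The 48 h array was the highest and the 192 h array stood well below the others, at 38.5% of 0 h on the scale with the offset. The fitted log2 change was -1.13 ± 0.37 (SE; limma adjusted p = 0.134). All 5 CDH6 probe sets above the signal limit had a negative fitted change, from -1.34 to -0.33, and all 5 were below 0 h at 192 h. These probe sets read the same 5 RNA samples and are not replicates of the time course. CDH6 rested on the last array: without 192 h its change was -0.13 (adjusted p = 0.899). It passed with hours in place of steps (0.0253), with the spike-in covariate (0.00984) and with array medians set equal (0.00897).

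CDH24, a type II cadherin that binds catenins, had signals of 55.2, 50.8, 47.6, 41.8 and 28.9. The first array was the highest and the last the lowest. The fitted log2 change was -0.77 ± 0.31 (SE), and at a limma adjusted p of 0.223 it did not pass. It was -0.47 without the 192 h array and -0.16 as the mean of its probe sets. The second CDH24 probe set read 29.2, 8.5, 17.5, 23.5 and 29.8 and had a fitted change of 0.46, so the probe sets disagreed in sign.

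CDH10, a neuronal type II cadherin of forebrain synapses, was the only tested member above 0 h on all 4 induced arrays, a pattern of 21.6% of all genes. It read 31.3 at 0 h and 53.5, 55.5, 81.8 and 51.3 later, highest at 96 h. The fitted change was 0.74 ± 0.37 (SE; limma adjusted p = 0.338). It was 0.14 without the 0 h array, 1.54 without 192 h and 0.36 with the spike-in covariate. CDH22, found in brain, had a fitted change of 0.88 ± 0.46 (adjusted p = 0.368; 0.28 with the spike-in covariate), with signals of 20.5, 15.8, 46.1, 32.7 and 35.2. Its 3 later arrays were above the 2 earlier ones.

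CDH11, known from bone and from mesenchymal neural crest cells, read 82.4, 108.0, 95.4, 47.4 and 112.0. The array at 96 h was low and the one at 192 h the highest of the 5. Its fitted log2 change was -0.11 ± 0.41 (SE; limma adjusted p = 0.942). The other tested CDH11 probe sets gave -0.14 and 0.61, and the first of them read 50.5, 59.6, 50.9, 45.6 and 50.6, so the low value at 96 h was smaller there. VE-cadherin (CDH5), the cadherin of endothelium, read 19.3, 23.9, 36.6, 22.5 and 12.3 (-0.43 ± 0.51, adjusted p = 0.752), and none of the endothelial markers was above the signal limit. CDH7, a neural crest cadherin, read 13.6, 27.7, 22.7, 12.9 and 23.5 (0.15 ± 0.51, adjusted p = 0.935), lowest at 0 and 96 h. The other type II genes were below the signal limit: CDH8 between 10.3 and 19.4, CDH19 between 5.9 and 11.1, CDH12 between 1.0 and 10.2, CDH18 between 1.0 and 10.8, CDH9 between 2.6 and 5.2, and CDH20 at the floor on all 5 arrays.

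CDH26, an atypical cadherin, was the only tested gene outside these subgroups, with signals of 25.4, 28.9, 12.6, 23.7 and 27.8. The 48 h array was low and the fitted log2 change was -0.008 ± 0.49 (SE; limma adjusted p = 0.995). CDH23 and PCDH15, which together form the tip links of inner ear hair cells, were below the signal limit at 12 to 21.4 and 1.0 to 6.5. So were PCDH12, of endothelium, at 4.4 to 20.2, and the liver-intestine and kidney cadherins CDH17 (1.0 to 10.5) and CDH16 (1.0 to 4.2). Of the 17 members below the limit, 8 were at the floor on at least 1 array.

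**Figure D3:**
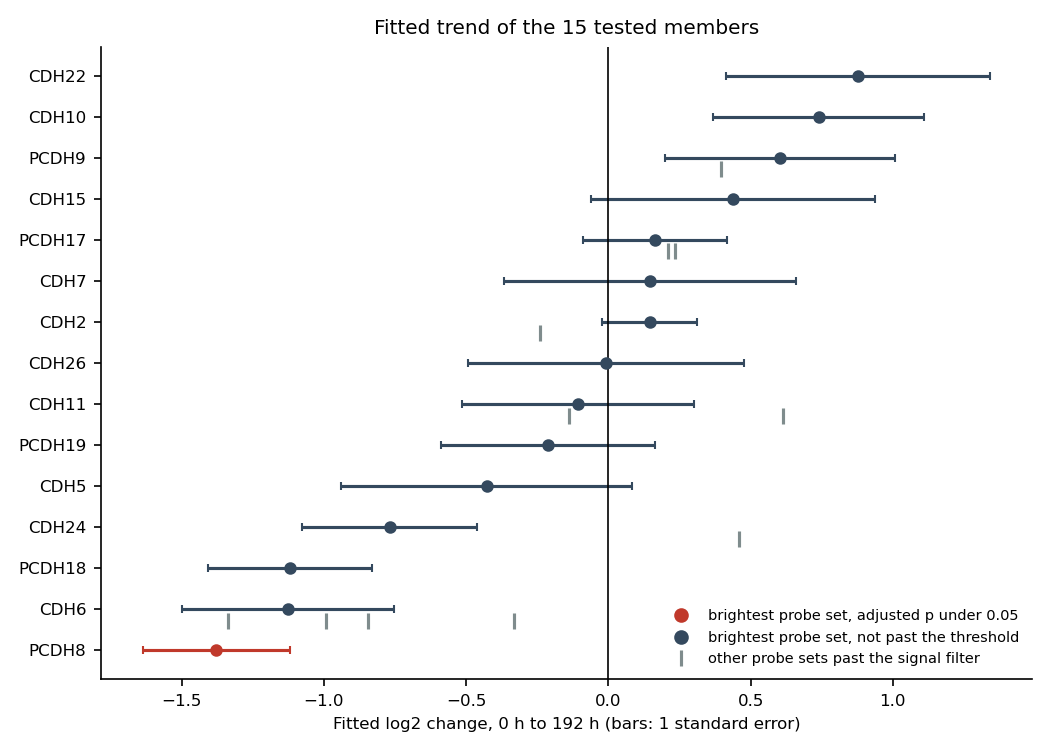
Fitted log2 change from 0 to 192 h for the 15 tested members (point, brightest probe set; bar, 1 SE; red, limma adjusted p under 0.05), with grey ticks for their other probe sets above the signal limit. PCDH8 at -1.38 is the only red point; CDH6 ticks all lie to the left of 0, while those of CDH2 and CDH24 lie on the other side of 0 from their points.

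Over 6 members with more than 1 probe set above the limit, the signs were the same in 3 (CDH6, PCDH9 and PCDH17) and mixed in 3 (CDH2, CDH11 and CDH24). Set against 0 h without a test, members moved past 2-fold on the scale with the offset in 5 cases: CDH22 was above 0 h at 48 h and CDH10 at 96 h, PCDH8 was below at 96 and 192 h, and CDH6 was below at 192 h. At 24 h, 0 of 15 members were past 2-fold in either direction, when 0.678% of all genes were above and 0.946% below. At 48 h 1.08% of all genes were above and 0.653% below, at 96 h 2.19% above and 1.17% below, and at 192 h 2.29% above and 1.93% below. The number of members below 0 h on all 4 induced arrays was 3 (CDH24, PCDH8 and PCDH19), and 20.2% of all genes had that pattern.

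Several members are neighbours in the genome. In RefSeq, 6 pairs of members have no other protein-coding gene between them. Only the pair CDH11 and CDH5 had both genes tested. In 3 pairs 1 gene was tested (CDH11 next to CDH8, CDH7 next to CDH19, and CDH10 next to CDH9), and in 2 pairs neither was (CDH3 with CDH1, and CDH18 with CDH12). PCDH8 and PCDH17 have 7 protein-coding genes between them, and only PCDH8 passed the threshold; the difference between them was not tested.

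Genes that work with cadherins were counted by list. Of 16 tested catenins and junction plaque genes, 1 rose and 2 fell, with a median fitted log2 change of 0.20. Of all genes 2.02% rose and 1.46% fell. At an unadjusted limma p under 0.05 there were 9 of the 16, 4 upward and 5 downward, against 17% of all genes. CTNNA1, alpha-E-catenin, which links cadherins to actin in most tissues, read 818.5, 700.0, 681.9, 581.6 and 468.6, lower at every step. Its fitted change was -0.74 ± 0.14 (SE; limma adjusted p = 0.0113), and the 5 probe sets gave -0.96 to -0.05. CTNNA2, alpha-N-catenin, the neuronal form, read 139.4, 151.9, 175.6, 208.9 and 292.4, higher at every step (1.01 ± 0.18, adjusted p = 0.00986; 1 probe set). The alpha-catenin genes thus had calls of opposite sign. AJUBA, a LIM protein that binds alpha-catenin, fell from 137.0 to 58.7 with its highest signal, 158.2, at 24 h (-1.27 ± 0.26, adjusted p = 0.0178). Without the 192 h array CTNNA1 (adjusted p = 0.108), CTNNA2 (0.143) and AJUBA (0.155) did not pass; without 0 h CTNNA1 (0.0979), and without 24 h AJUBA (0.0505), did not either. With no signal filter none of the 3 passed (0.0904, 0.0911 and 0.161), and AJUBA did not with the spike-in covariate (0.0797).

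Nectins are immunoglobulin-type adhesion proteins that join cadherins at junctions. On the nectin list, which also holds the nectin-like gene PVR, 1 of 5 tested genes fell, against 1.46% of all genes. At an unadjusted limma p under 0.05 there was also 1 of 5, against 17% of all genes. NECTIN3 read 325.9, 291.4, 227.5, 210.0 and 145.6, lower at every step (-1.10 ± 0.17, limma adjusted p = 0.00457; both probe sets negative). It did not pass without the 192 h array (0.0619) or with no signal filter (0.0671). NECTIN2 had the largest negative change, -1.24 (adjusted p = 0.36), and PVR the largest positive one, 0.55 (0.357). The nectin list had a median of -0.10. Of 10 tested genes with cadherin repeats outside the member rule, 4 had an unadjusted limma p under 0.05, against 17% of all genes. Among these 10, 1 rose and 0 fell (median 0.26), against 2.02% and 1.46% of all genes. This was CELSR3, a seven-pass cadherin needed for axon tract formation, at 317.4, 352.3, 397.5, 454.3 and 468.2 (0.59 ± 0.14, adjusted p = 0.038). It passed in only 4 of 14 other settings, did not pass without any 1 of the 5 arrays (adjusted p = 0.0573 to 0.26), and did not with array medians set equal (0.28). FAT4 had the largest positive change of that list, 1.29 (0.116), and CELSR1 the largest negative one, -0.79 (0.27).

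For the next 3 lists, 3.47% of all genes had a call and 17% an unadjusted p under 0.05. Of 7 tested transcription factors known to repress CDH1, 0 rose and 0 fell (limma; 2 had an unadjusted p under 0.05; median -0.04). The 2 were TWIST1 (-0.57, limma adjusted p = 0.0559) and TCF4 (-0.40, 0.12). SNAI1 had the largest positive change (0.26, adjusted p = 0.721) and ZEB2 the largest negative one (-0.63, 0.461). The ZEB2 change was -0.12 without the 0 h array, -1.52 without 192 h, and -0.06 once the spike-in level was a covariate. The list of shedding proteases holds enzymes that cut cadherins at the surface, and also subunits of gamma-secretase, which acts within the membrane. Of its 11 tested genes 0 rose and 0 fell, with 3 at an unadjusted p under 0.05 and a median of 0.02. PSEN2, a gamma-secretase subunit, had the largest positive change (0.63, limma adjusted p = 0.194). ADAM9, a surface protease, had the largest negative one (-0.60, 0.0766). Of 9 tested genes of the WAVE complex and its activators 0 rose and 0 fell (2 at an unadjusted p under 0.05; median -0.06), with CYFIP2 at 0.57 (0.103) and WASF2 at -0.43 (0.167).

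**Figure D4:**
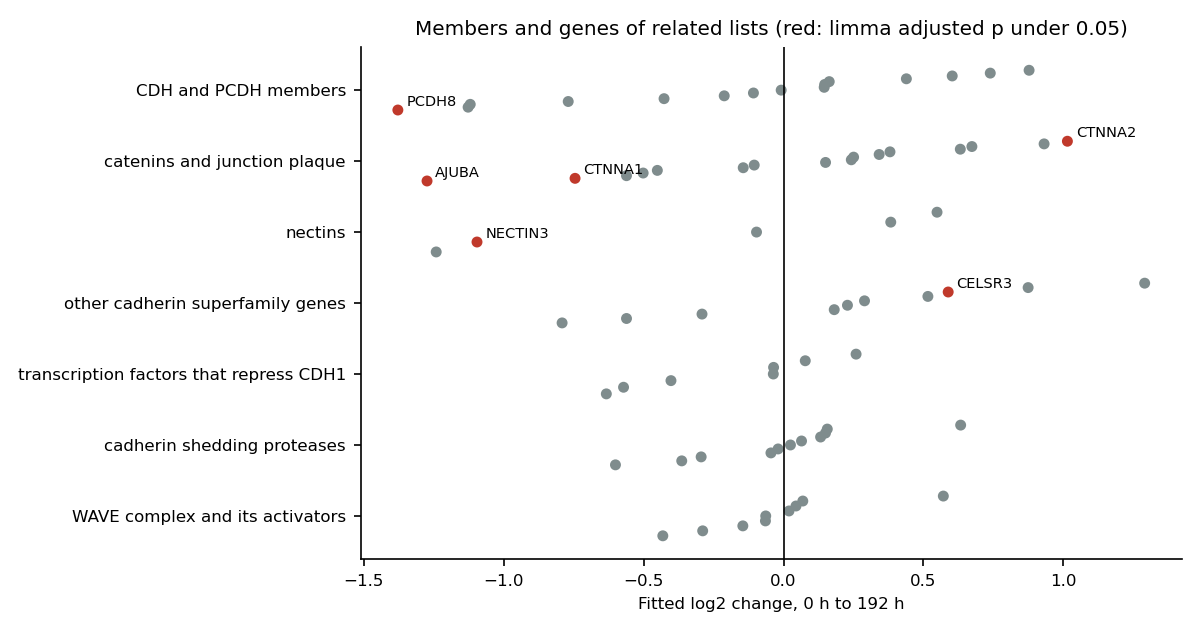
Fitted log2 change from 0 to 192 h of the 15 tested members and of the tested genes of 6 related lists, 1 point per gene, spread vertically by rank within a list; red points with names had a limma adjusted p under 0.05. PCDH8 is the only red member, CTNNA1 and CTNNA2 lie on opposite sides of 0, and the lists of repressors, proteases and WAVE genes have no red point.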

How the data were processed

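Each array's column holds log2 values that the authors deposited; MAS5 and GCOS are named in the submitters' processing notes, without versions. That these are log2 MAS5 signals was read from the values, since undoing the log gives multiples of 0.1, to within 0.01, in 100% of cases. No scaling target or detection call is given in the sources used here. Signals were made linear again, 4.7 was added (the 25th percentile, median of the arrays) and log2 taken. The 62 control probe sets were left out. GEO's platform annotation, with symbols looked up by gene ID in RefSeq GRCh38.p14, named 1 gene for 41097 probe sets, several for 1801 and none for 11777, control sets included; 0 member symbols changed. The trend was fitted in limma 3.58.1 (R 4.3.3) using eBayes with an intensity trend, with 3 residual degrees of freedom and 9.07 from the prior. Tests were two-sided. The fit was also run on simulated straight-line courses with independent noise. These lack shifts of whole arrays and bent courses, so no conclusion about these data is drawn from them. Precision is limited by the single array at each time, and no label says that the arrays come from separate cultures. Named genes are all members and, of each related list, those past the threshold and the largest changes in each direction. The 2 CDH1 repressors at an unadjusted limma p under 0.05 are named too. Members, lists, tests and alternatives were chosen with earlier results of these data known. Alternatives varied the offset, filter, scaling, time regressor, probe set choice, spike-in covariate and set of arrays.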

Additional observations from a re-analysis of the deposited data

How the results depend on the processing

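The fitted changes of 35 genes were recomputed under up to 14 alternatives. Of 480 such values, 419 kept their direction and their side of the threshold, 34 kept the direction but no longer passed, 6 newly passed and 21 changed sign. A changed signal filter, or leaving out the 48 h array at the midpoint of the steps, leaves a gene's fitted change as it was. So does the mean of probe sets for a gene with 1 above the limit. In these alternatives the direction was fixed in advance, and only the side of the threshold could change. No member rose in any alternative. The number of members that fell was 0 with no signal filter, 2 with the signal limit doubled and 3 with array medians set equal. It stayed at 1 with hours in place of steps and with the spike-in covariate, but the gene was then CDH6 and not PCDH8, and without the 0 h array it was PCDH18. The count of all genes past the threshold, 415, was 21 with no filter (16 rose and 5 fell), 230 with the spike-in covariate, and 191 to 399 with 1 array left out, of which 191 without 0 h, 241 without 96 h and 272 without 192 h. With no filter 32 members entered and 14 cases of a member past 2-fold from 0 h were counted, against 5. All sign changes concerned genes that did not pass. CDH11 was 0.085 with hours, 0.64 with the spike-in covariate, 0.12 as the mean of its probe sets and -0.96 to 0.33 with 1 array left out; CDH2 was -0.11 with the covariate and -0.048 as the mean; CDH26 was 0.19 with hours, 0.56 with the covariate and -0.48 to 0.23 with 1 array left out. PCDH17 was -0.019 with hours and -0.40 with the covariate, and PCDH19 was 0.081, 0.25 and -1.04 to 0.54 with 1 array left out. With 1 array left out CDH5 ranged from -1.14 to 0.43, CDH7 from -0.50 to 0.43, SNAI1 from -0.14 to 0.45 and NECTIN2 from -2.26 to 0.31. Without a change of sign, NECTIN2 was -0.61 and FAT4 0.83 with 4 times the offset, and PSEN2 was 0.40 with the covariate. The cause was not tested. No paired analysis was possible because each time point has 1 array. The 17 members below the signal limit were not tested in the main fit.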
